A study of Danio rerio with 4 samples.

Results

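The transcription factor genes *egr1*, *npas4a*, *nfatc3a*, *esrrgb* and *sox6*, 5 of 2075 differently named genes in the authors' tables, were followed in the injured zebrafish retina. Whole retinae came from wild-type fish, 10 months old in every group. They were collected 12 hours after injury (12 hpi), 4 days after injury from fish kept for those 4 days in water with 100 µM valproic acid (4 dpi + VPA), 4 days after injury without it (4 dpi), or uninjured. Valproic acid inhibits histone deacetylases. The 5 genes were chosen by name from genes already seen in those tables, so their levels are given as a description and no test was run on them. Each group is 1 GEO sample and has 1 pooled FPKM value (fragments scaled by transcript length and by the mapped fragments of the library) per gene or transcript, so no difference below has a replicate check. The series' design text speaks of duplicates, and values of single libraries were not analysed here. The labels do not state the kind of injury.

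Transcription factors of this kind link the electrical activity and metabolic state of a neuron to its gene expression. Calcium that enters an active neuron activates kinases, which lead within minutes to transcription of immediate early genes such as *egr1* and *npas4a*. Calcium also activates the phosphatase calcineurin, which removes phosphate from NFAT proteins and lets them enter the nucleus. *egr1* encodes a zinc finger factor that, in mouse and chick retina, changes with visual stimulation, and *npas4a* encodes a basic helix-loop-helix PAS factor whose mammalian counterpart is induced by calcium influx in neurons. *nfatc3a* encodes an NFAT factor. *esrrgb* encodes an estrogen-related receptor, a nuclear receptor that in mammals activates genes of mitochondrial energy production together with PGC-1 coactivators, and *sox6* encodes a SoxD factor, which binds DNA through an HMG box and acts in cell differentiation. *esrrgb* and *sox6* are not known mainly as activity or calcium factors, so that description fits *egr1*, *npas4a* and *nfatc3a*.

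All 5 genes were listed lower than in uninjured retina at 4 dpi + VPA and at 4 dpi, and 1 of them, *sox6*, was also listed lower at 12 hpi. Of all genes in the same tables, 42.4% were listed lower at 4 dpi + VPA, 39.7% at 4 dpi and 35.6% at 12 hpi. These shares stand beside the counts as background, since the 5 genes were chosen with the tables known. The other 4 genes were in neither of the 12 hpi tables, which hold only entries that passed the authors' filter, so their levels at 12 hpi are not known here.

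The immediate early genes differed in level. *egr1* was at 13.3 FPKM at 4 dpi + VPA and 7.68 FPKM at 4 dpi, against 37.8 FPKM in uninjured retina. It thus kept 35.2% of its uninjured level at 4 dpi + VPA and 20.3% at 4 dpi, the largest shares among the 5 genes in both groups. In the authors' deposited table its log2 fold change was -1.51 at 4 dpi + VPA and -2.30 at 4 dpi. The standard errors (SE) of these log2 fold changes, derived as the fold change over the authors' test statistic, were 0.71 and 0.74.

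*npas4a* had the lowest level of the 5 genes in every group in which it was listed. It was at 0.842 FPKM at 4 dpi + VPA and 0.610 FPKM at 4 dpi, against 5.30 FPKM in uninjured retina, which left 15.9% and 11.5% of the uninjured level. In the authors' deposited table its log2 fold change was -2.65 (SE 0.98) at 4 dpi + VPA and -3.12 (SE 0.96) at 4 dpi. The number of fragments behind these values is unknown. The log2 change of *npas4a* at 4 dpi was -2.93 with 0.1 added to each FPKM and -1.97 with 1 added.

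*nfatc3a*, the NFAT gene of the group, was at 4.595 FPKM at 4 dpi + VPA, against 28.1 FPKM in uninjured retina, in the transcript-level table. In the gene-level table it was at 2.97 FPKM at 4 dpi, against 36.7 FPKM in uninjured retina. It kept 16.3% of the uninjured level at 4 dpi + VPA and 8.10% at 4 dpi, the lowest share of the 5 genes at that time. The listed transcript is 1 of 3 annotated for the gene and made up 76.6% of the gene's FPKM in uninjured retina. Its log2 fold change in the authors' deposited table was -2.61 (SE 0.83) at 4 dpi + VPA and -3.63 (SE 0.96) at 4 dpi.

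*esrrgb* was the most abundant of the 5 genes in uninjured retina. It was at 10.2 FPKM at 4 dpi + VPA and 6.21 FPKM at 4 dpi, against 64.8 FPKM in uninjured retina, or 15.8% and 9.59% of the uninjured level. Its log2 fold change in the authors' deposited table was -2.67 (SE 0.76) at 4 dpi + VPA and -3.38 (SE 0.81) at 4 dpi. At 4 dpi the level of *esrrgb* was below that of *egr1*, while in uninjured retina it was above it.

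*sox6* is the 1 gene of the 5 with a value in all 3 injured groups. Its listed transcript, 1 of 4 annotated, was at 3.05 FPKM at 12 hpi and 3.17 FPKM at 4 dpi + VPA, against 19.4 FPKM in uninjured retina. In the gene-level table *sox6* was at 2.84 FPKM at 4 dpi, against 30.4 FPKM in uninjured retina, and the listed transcript made up 63.6% of that uninjured gene level. The share of the uninjured level was 15.8% at 12 hpi, 9.34% at 4 dpi and 16.4% at 4 dpi + VPA. The log2 fold change in the authors' deposited table was -2.67 (SE 0.85) at 12 hpi, -3.42 (SE 0.96) at 4 dpi and -2.61 (SE 0.82) at 4 dpi + VPA. All 3 injured groups were below uninjured retina, and the transcript kept a similar share at 12 hpi and at 4 dpi + VPA.

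**Figure D1:**
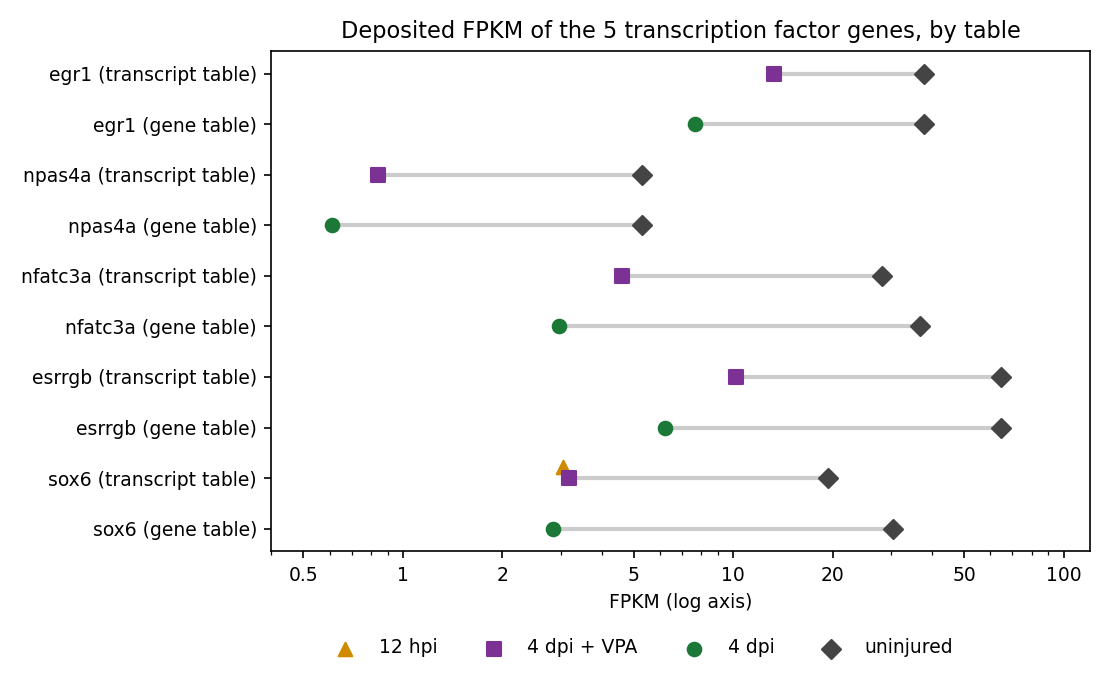
FPKM of the 5 genes on a log axis, with 1 row for the transcript-level tables (12 hpi, 4 dpi + VPA) and 1 row for the gene-level table (4 dpi) of each gene; each point is the authors' 1 pooled value of a group and the grey line spans the row. The uninjured value is the rightmost in all 10 rows, and it is the same in both rows of *egr1*, *npas4a* and *esrrgb*, which have 1 annotated transcript each.

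In uninjured retina the FPKM order at gene level was *esrrgb* at 64.8, *egr1* at 37.8, *nfatc3a* at 36.7, *sox6* at 30.4 and *npas4a* at 5.30. At 4 dpi the order was *egr1* at 7.68, *esrrgb* at 6.21, *nfatc3a* at 2.97, *sox6* at 2.84 and *npas4a* at 0.610. The spread over libraries is not known, so whether neighbours in either order differ beyond it cannot be said. In bulk retina, fewer cells that express a gene and less RNA of the gene per cell cannot be told apart.

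The entries kept by the authors' filter had a p-value of at most 0.05 before adjustment and were above 1 FPKM in the higher group. In the authors' deposited table, *nfatc3a* at 4 dpi had p = 5e-05 and q = 0.0421 and was 1 of 5 genes marked significant among those listed lower (0.349% of the genes listed at 4 dpi). That p is the smallest deposited in any comparison, and the 5 marked genes all share this p and q. Of the genes followed here, the other 4 were not marked at 4 dpi. Their deposited q ran from 0.176 for *sox6* to 0.831 for *npas4a*, with *esrrgb* at 0.302 and *egr1* at 0.511. At 4 dpi + VPA none of the 5 was marked, and the deposited q was 0.938 for *esrrgb* and *nfatc3a*, 0.948 for *sox6* and 0.997 for *egr1* and *npas4a*. For *sox6* at 12 hpi the deposited q was 0.955. The entry closest to the p limit of the filter was *egr1* at 4 dpi + VPA, with a deposited p of 0.0304, and the tables hold no entries with p above 0.05. At a p of at most 0.01, 5 of the 5 genes were left at 4 dpi, 3 at 4 dpi + VPA and 1 at 12 hpi. Among genes with an entry listed lower, 123 of 569, 70 of 441 and 31 of 218 passed that limit in those comparisons. These were 8.58%, 6.76% and 5.18% of all genes listed there, higher and lower together. The deposited p of *esrrgb* at 4 dpi was 25.5 times the p of a normal distribution at the same test statistic. For *npas4a* at 4 dpi it was 7.70 times. If read with a normal distribution, the SE given above thus understates the uncertainty of these 2 values. The same ratio was 4.92 for *esrrgb* and 3.67 for *npas4a* at 4 dpi + VPA. For *sox6* it was 2.21 at 12 hpi and 2.09 at 4 dpi + VPA. For *nfatc3a* at 4 dpi + VPA it was 1.49 and for *egr1* at 4 dpi 1.36. Read with a normal distribution, the SE of these values understates their uncertainty too, to a lesser degree. The ratio was below 1 for *nfatc3a* at 4 dpi, at 0.304, for *sox6* at 4 dpi, at 0.918, and for *egr1* at 4 dpi + VPA, at 0.876. That of *nfatc3a* at 4 dpi rests on the smallest deposited p. The median over the entries for which this ratio could be computed was 1.34 at 4 dpi. It was 1.40 at 4 dpi + VPA and 1.40 at 12 hpi.

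**Figure D2:**
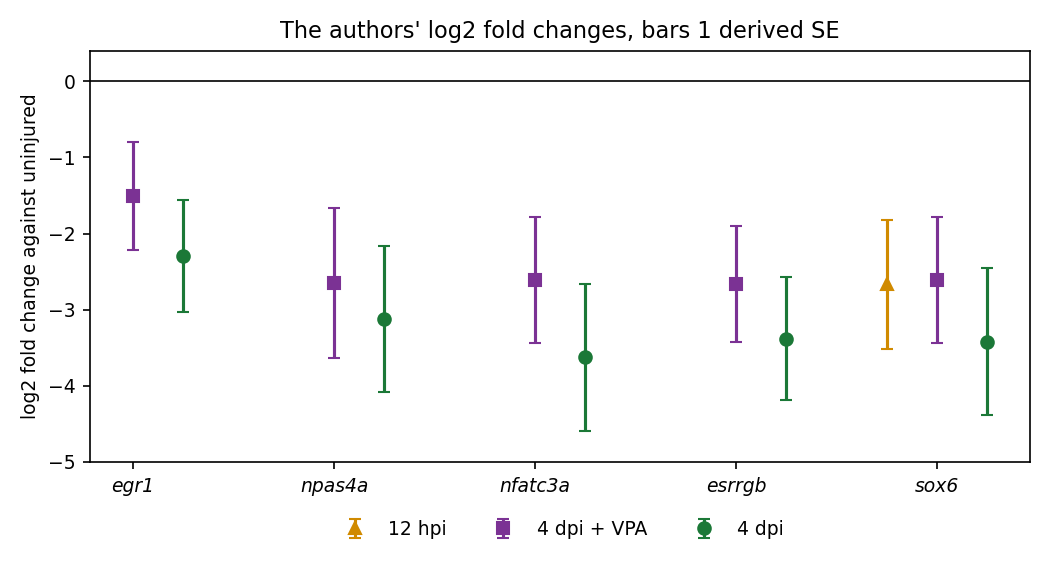
The authors' log2 fold changes against uninjured retina for the 5 genes in each comparison that lists them; bars are 1 SE, derived as the log2 fold change over the authors' test statistic. All 11 values are below 0, from -1.51 for *egr1* at 4 dpi + VPA to -3.63 for *nfatc3a* at 4 dpi, and for each gene the bars of 4 dpi + VPA and 4 dpi overlap. These bars share the uninjured sample, so their overlap cannot show whether the 4-day groups differ. For *nfatc3a* and *sox6* they also set a transcript beside the whole gene.

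Among the entries listed lower at 4 dpi with a value above 0, the median log2 fold change was -1.95 and the median uninjured level was 24.6 FPKM. Ordered by log2 fold change from the lowest, *nfatc3a* was at place 10 of these 558 entries, *sox6* at 17, *esrrgb* at 18, *npas4a* at 30 and *egr1* at 144. At 4 dpi + VPA the places among 424 entries were 74 for *esrrgb*, 76 for *npas4a*, 83 for *nfatc3a*, 84 for *sox6* and 407 for *egr1*. *egr1* was therefore below the median of the lower entries at 4 dpi but among the smallest listed decreases at 4 dpi + VPA. The entries are genes at 4 dpi and transcripts at 4 dpi + VPA, each cut at p of at most 0.05. The places in these comparisons are thus not on a like footing. At 12 hpi *sox6* was at place 51 of 194.

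**Figure D3:**
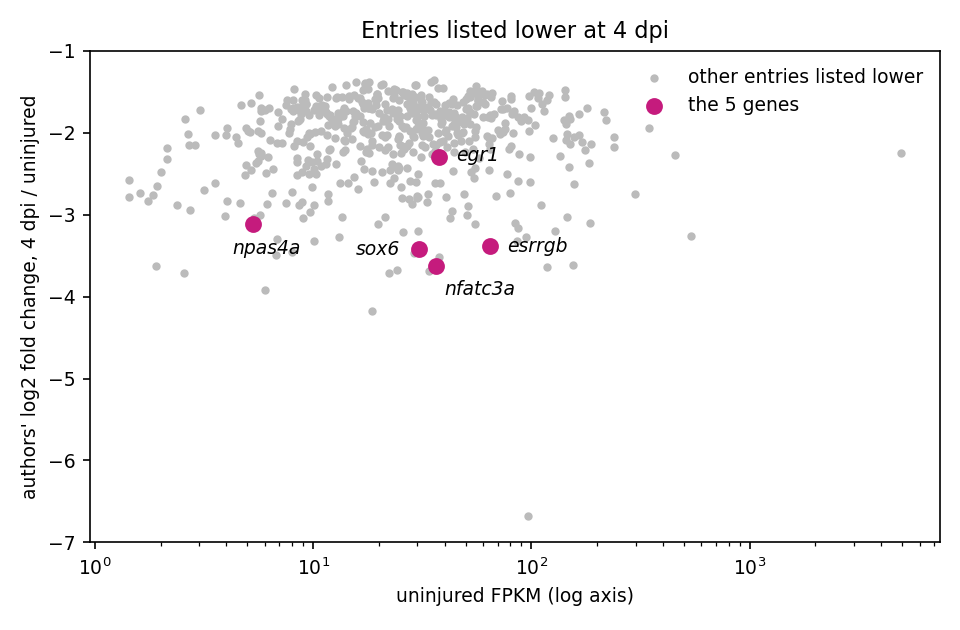
The authors' log2 fold change at 4 dpi against the uninjured FPKM (log axis) for 557 of the 558 entries listed lower with a value above 0; 1 entry lies below the axis limit of -7. *nfatc3a*, *sox6*, *esrrgb* and *npas4a* lie between -3.12 and -3.63, below most grey points, and *egr1* lies at -2.30.

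Whether the retinae kept in VPA differed from those without it was not tested by the authors' tables, which set each injured group against uninjured retina. For *egr1*, *npas4a* and *esrrgb* the FPKM can be set side by side, because each has 1 annotated transcript. In all 356 such genes listed in both comparisons the uninjured FPKM was identical in the gene-level and transcript-level tables. *egr1* was 1.73 times as high at 4 dpi + VPA as at 4 dpi, *esrrgb* 1.64 times and *npas4a* 1.38 times. For *nfatc3a* and *sox6* the transcript at 4 dpi + VPA was 1.55 and 1.12 times the level of the whole gene at 4 dpi. A transcript's FPKM stayed within its gene's FPKM in uninjured retina for 763 of 765 transcripts of genes in the 4 dpi tables, so the gene's level is taken here as an upper value for the transcript at 4 dpi.

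All 5 values at 4 dpi + VPA were thus above those at 4 dpi. Of the 142 genes with 1 annotated transcript that were listed lower in both comparisons, *egr1*, *npas4a* and *esrrgb* included, 51.4% were higher at 4 dpi + VPA. That share was 53.7% of 136 genes without the 6 genes at 0 in both groups, a choice made after seeing the data. The median ratio was 1.02, with quartiles of 0.857 and 1.25. The ratio was smaller than that of *egr1* in 127 of these genes, smaller than that of *esrrgb* in 123 and smaller than that of *npas4a* in 110. On the log2 scale the 5 ratios ran from 0.16 for *sox6* to 0.79 for *egr1*. Against uninjured retina, the SE of the 5 genes at 4 dpi + VPA and at 4 dpi lay between 0.71 and 0.98. No SE of the ratio itself is among the values used here, and these differences have no replicate check.

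**Figure D4:**
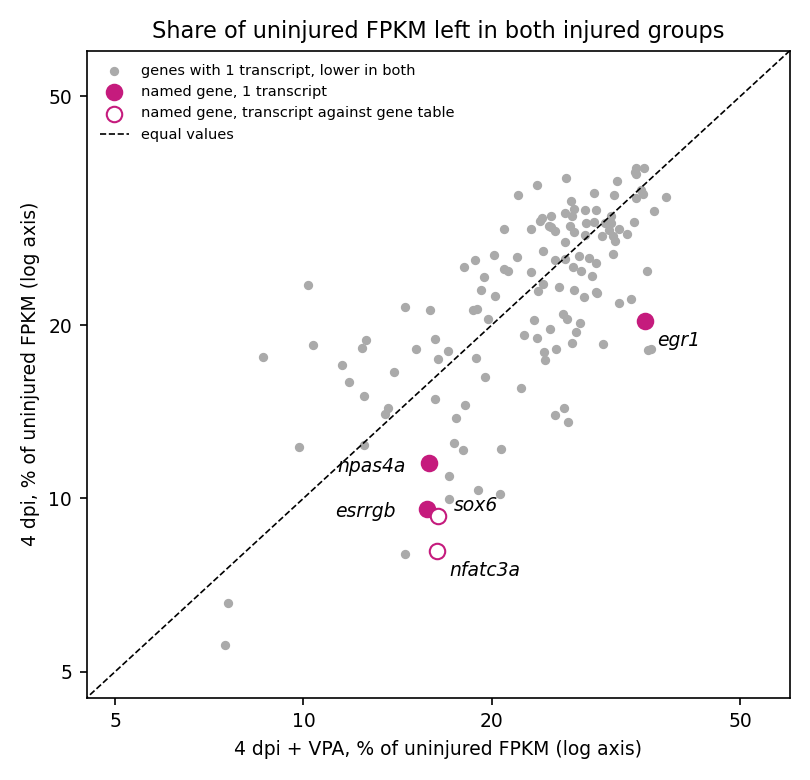
FPKM as a percentage of the uninjured level at 4 dpi + VPA (x, log axis) and at 4 dpi (y, log axis); grey points are 135 of the 142 genes with 1 annotated transcript listed lower in both; 7 are not drawn, 6 of them at 0 in both groups. All 5 named genes lie below the dashed line of equal values; for the open circles, *nfatc3a* and *sox6*, x is a transcript and y is the gene, each over its own uninjured value.

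The 5 genes lie on 3 chromosomes of the genome build GRCz10, with coordinates as deposited. *egr1* lies on chromosome 14 from 21035276 to 21039140 and *npas4a* on the same chromosome from 30296640 to 30302505, 9.26 Mb away, both on the minus strand. *nfatc3a* lies on chromosome 7 from 34555994 to 34656380 on the minus strand. *sox6* lies on chromosome 7 from 26980281 to 27181168 on the plus strand, 7.37 Mb from *nfatc3a*. *esrrgb* lies on chromosome 20 from 46886335 to 46913503 on the minus strand.

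The genes differ in size. *egr1* and *npas4a* are compact and span 3.86 and 5.87 kb, *esrrgb* spans 27.2 kb, and *nfatc3a* and *sox6* span 100 and 201 kb. The median span of entries listed lower at 4 dpi with a value above 0 was 51.3 kb, so the 5 genes lie on both sides of it. The annotation in the deposited tables gave the term for transcription factor activity to *npas4a*, *nfatc3a* and *esrrgb* and not to *egr1* and *sox6*, and hence misses known factors. With that limit, 19 of the 569 genes listed lower at 4 dpi (3.34%) and 36 of the 865 listed higher (4.16%) carried it. Among these 19 genes *nfatc3a* had the lowest log2 fold change and *esrrgb* the next lowest, and *npas4a* was at place 4.

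Families of the 5 genes were then examined. Of the list of EGR genes and their NAB co-repressors, 8 genes in all, *egr1* was the 1 gene listed in any comparison. The bHLH-PAS list of 22 genes had *npas4a* alone at 4 dpi + VPA and 4 dpi. At 12 hpi, where 35.6% of all listed genes were lower, the same list held a pair of clock genes, both lower. *npas2*, a clock factor that pairs with Bmal, was at 7.31 FPKM at 12 hpi against 33.1 FPKM in uninjured retina, and *arntl1b*, a Bmal gene, was at 4.26 FPKM against 17.0 FPKM.

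Of the 35 genes on the calcineurin, NFAT and MEF2 list, 1 was listed at 4 dpi + VPA and 2 at 4 dpi, all lower. *nfatc3a*, chosen with its lower level known, was the 1 gene at 4 dpi + VPA and 1 of the 2 at 4 dpi. The other at 4 dpi was *nfat5b*, an NFAT relative that responds to osmotic stress rather than calcineurin. It was at 10.3 FPKM at 4 dpi against 31.3 FPKM in uninjured retina. At 12 hpi the list had 1 gene higher, *rcan2*, a calcineurin regulator, with a transcript at 9.23 FPKM that was listed at 0 in uninjured retina. No calcineurin subunit was listed in any comparison. Of the 41 genes on the CREB, calmodulin and CaM kinase list, 3 at 4 dpi + VPA and 6 at 4 dpi were listed, all lower. As background for both lists, 42.4% of all genes listed at 4 dpi + VPA and 39.7% at 4 dpi were lower. The median log2 change of the listed kinase list genes, with 0.1 added to each FPKM, was -2.03 at 4 dpi + VPA and -1.77 at 4 dpi. Over the entries listed lower with a value above 0, the median deposited log2 fold change, with nothing added, was -2.01 and -1.95. *camkk1b*, a kinase that activates other calmodulin-dependent kinases, was at 42.4 FPKM at 4 dpi + VPA against 174 FPKM in uninjured retina in its transcript. At gene level it was at 21.5 FPKM at 4 dpi against 184 FPKM. *crebbpa*, a histone acetyltransferase that binds CREB, was at 3.46 FPKM at 4 dpi against 10.98 FPKM. *camk2b2*, a subunit of calcium/calmodulin-dependent kinase II, was at 11.6 FPKM at 4 dpi against 57.3 FPKM.

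The calcium entry and extrusion list holds 77 genes, mainly of calcium channels, exchangers and pumps, with some of calcium-binding proteins. Of these, 6 were listed at 12 hpi, 13 at 4 dpi and 7 at 4 dpi + VPA, and 0 were listed higher. Genes were matched by exact symbol, so calcium channel genes listed under other names, such as *RYR2*, *CACNA2D2 (1 to many)* and *cacna1i*, are not counted. Of all genes in the same comparisons, 35.6% were listed lower at 12 hpi, 39.7% at 4 dpi and 42.4% at 4 dpi + VPA. The median log2 change of the listed calcium genes, with 0.1 added to each FPKM, was -2.43 at 12 hpi, -2.07 at 4 dpi and -2.08 at 4 dpi + VPA. Over all listed genes, higher and lower, the median was 2.17 at 12 hpi, 1.93 at 4 dpi and 1.79 at 4 dpi + VPA. In the authors' deposited table, entries listed lower were summarised without those at 0 in the injured group. Their median log2 fold change was -2.10 at 12 hpi, -1.95 at 4 dpi and -2.01 at 4 dpi + VPA. The 12 hpi median of the calcium genes rests on transcripts listed at 0 and was -1.56 with 1 added to each FPKM. Without entries under 0.01 FPKM it was -1.81, a smaller decrease than -2.10. *slc8a2b*, a sodium-calcium exchanger, was at 2.67 FPKM at 4 dpi + VPA in its transcript and at 1.70 FPKM at 4 dpi at gene level. In uninjured retina it was at 22.2 FPKM at both levels. *atp2b2*, a calcium pump of the cell membrane, was at 6.18 FPKM at 4 dpi against 38.0 FPKM at gene level. *cacna2d2a*, an auxiliary calcium channel subunit, was at 6.89 FPKM at 4 dpi + VPA and 7.76 FPKM at 4 dpi, against 36.3 FPKM in uninjured retina.

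Some genes of estrogen-related receptors and their coactivators were listed lower together with *esrrgb*. Of the 14 genes on this list, 4 were listed at 4 dpi + VPA and the same 4 at 4 dpi, all lower, with a median log2 change of -2.16 and -2.40. The 4 include *esrrgb*, which was chosen with its lower level known. Of all genes in the same comparisons, 42.4% were listed lower at 4 dpi + VPA and 39.7% at 4 dpi. The entries listed lower with a value above 0 had a median deposited log2 fold change, with nothing added, of -2.01 and -1.95. Each of the 4 has 1 annotated transcript, so their levels can be set side by side. *ppargc1a*, which encodes PGC-1 alpha, a coactivator of mitochondrial genes, was at 6.64 FPKM at 4 dpi + VPA and 3.66 FPKM at 4 dpi, against 25.4 FPKM in uninjured retina. *ppargc1b*, its paralog, was at 12.0 and 10.0 FPKM at 4 dpi + VPA and 4 dpi, against 41.3 FPKM. *esrrd*, another estrogen-related receptor gene, was at 64.7 FPKM at 4 dpi + VPA and 89.3 FPKM at 4 dpi, against 344 FPKM in uninjured retina, and at 12 hpi it was at 85.6 FPKM. *esrrd* was thus the 1 gene of the 4 that was lower at 4 dpi + VPA than at 4 dpi.

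Unlike the receptor list, the SOX list was listed in both directions. Of 26 genes, *sox6* was the 1 gene listed lower in any comparison. At 4 dpi 3 SOX genes were listed higher, and at 4 dpi + VPA 1 was. Among all listed genes, 865 of 1434 at 4 dpi and 595 of 1036 at 4 dpi + VPA were higher. *sox11b*, a SoxC factor of neural progenitors and regrowing neurons, was at 46.1 FPKM at 4 dpi + VPA and 74.1 FPKM at 4 dpi, against 6.002 FPKM in uninjured retina. *sox2*, a factor of retinal progenitors and Müller glia, was at 23.9 FPKM at 4 dpi against 7.54 FPKM, and *sox21b* was at 1.17 FPKM at 4 dpi and listed at 0 in uninjured retina. *sox5* and *sox13*, the other SoxD genes on the list, were not listed in any comparison.

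While *egr1* and *npas4a* were listed lower, most listed genes of a separate list of activity-regulated genes were higher. Of the 62 genes on it, 10 were listed at 12 hpi, all higher, 7 at 4 dpi, 6 of them higher, and 5 at 4 dpi + VPA, 4 of them higher. Most listed genes of any kind were also higher: 381 of 599 at 12 hpi, 865 of 1434 at 4 dpi and 595 of 1036 at 4 dpi + VPA. *jun*, an AP-1 subunit, was at 101 FPKM at 4 dpi + VPA and 90.9 FPKM at 4 dpi, against 6.21 FPKM in uninjured retina. *junbb*, another AP-1 subunit, was at 58.8 FPKM at 4 dpi + VPA and 65.4 FPKM at 4 dpi, against 12.8 FPKM. *atf3*, a stress-induced factor, was at 24.2 and 26.6 FPKM at 4 dpi + VPA and 4 dpi, against 0.952 FPKM. All of these were higher still at 12 hpi, with *jun* at 147 FPKM, *junbb* at 123 FPKM and *atf3* at 81.8 FPKM. *fosab* and *fosl1a*, both of the Fos family, were listed at 12 hpi and in neither 4-day comparison. *fosab* was at 77.3 FPKM at 12 hpi against 1.89 FPKM in uninjured retina, and *fosl1a* was at 23.8 FPKM against 1.40 FPKM. The genes of the list that were lower were *per1a*, a light-responsive clock gene, at 9.77 FPKM at 4 dpi against 31.3 FPKM, and *klf11a* at 1.94 FPKM at 4 dpi + VPA against 10.8 FPKM.

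**Figure D5:**
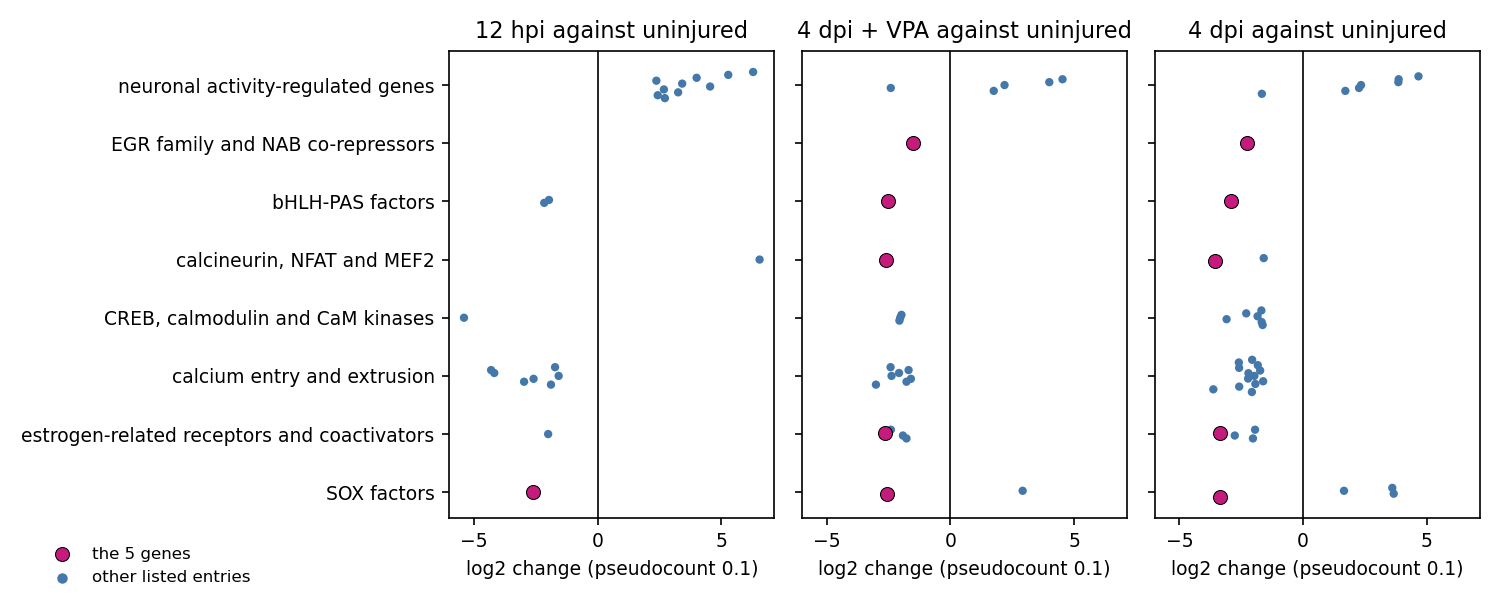
Log2 change against uninjured retina, with 0.1 added to each FPKM, of every listed entry of 8 gene lists in the 3 comparisons; large points are the 5 genes. The calcium, calcineurin, kinase and receptor lists lie left of 0 except for *rcan2* at 12 hpi, while most activity-regulated genes and 3 SOX genes at 4 dpi lie right of 0.

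The genes whose pattern was most like each of the 5 were sought among established gene names listed in exactly the same comparisons, at 5 FPKM or more in the higher group. Likeness was the Euclidean distance between mean-centred log2 changes against uninjured retina, which itself counted as no change. It ran over 3 groups (4 dpi + VPA, 4 dpi and uninjured), or over 4 groups for *sox6*. For genes with several transcripts, such as *nfatc3a* and *sox6*, transcript-level and gene-level changes with different uninjured values were thus combined. The groups compared share the uninjured sample, so the distances are a description. Among 382 genes, those nearest to *egr1* were *nr1d1*, a clock repressor, at a distance of 0.12, *DBNDD2* at 0.15 and *synm*, an intermediate filament gene, at 0.15. *nr1d1* was at 10.2 FPKM at 4 dpi against 55.01 FPKM in uninjured retina. Those nearest to *npas4a* were *KLHL29 (1 to many)*, as the files name it, at 0.08, *syngap1b*, a synaptic Ras regulator, at 0.12 and *nrxn2b*, a neurexin, at 0.13. *nrxn2b* was at 1.31 FPKM at 4 dpi + VPA and 1.03 FPKM at 4 dpi, against 7.47 FPKM in uninjured retina.

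*nfatc3a* and *esrrgb* were among the nearest genes of each other, at a distance of 0.21. Both were also close to *SLC45A4 (1 to many)*, which was at 17.2 FPKM at 4 dpi + VPA and 9.47 FPKM at 4 dpi, against 118 FPKM in uninjured retina. The nearest gene to *esrrgb* was *cdh27*, a cadherin, at 0.14, and *crtac1a* was at 0.23 from *nfatc3a*. For *sox6*, compared with 117 genes, the nearest were *sema7a*, a semaphorin, at 0.45, *MAP4 (1 to many)* at 0.51 and *pnpla6* at 0.60. *sema7a* was at 7.69 FPKM at 12 hpi and 9.50 FPKM at 4 dpi + VPA, against 36.7 FPKM in its transcript in uninjured retina.

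Markers of retinal and other cell types were listed in the same comparisons. At 4 dpi + VPA and at 4 dpi, 4 of 14 Müller glia markers were listed in each group and 7 and 9 of 19 macrophage and microglia markers, all higher, and 5 of 14 lens markers were higher in each of the 3 injured groups. Of all listed genes, 595 of 1036 at 4 dpi + VPA, 865 of 1434 at 4 dpi and 381 of 599 at 12 hpi were higher. At 12 hpi the Müller glia list held *slc1a2b*, a glutamate transporter gene, listed lower at 16.04 FPKM against 66.05 FPKM in uninjured retina, and the macrophage list held *coro1a*, listed higher. The listed macrophage markers summed to 637 FPKM at 4 dpi against 90.3 FPKM in uninjured retina. The listed Müller glia markers summed to 3482 FPKM at 4 dpi against 311 FPKM in uninjured retina, of which *apoeb* alone made up 2111 and 234 FPKM. At 4 dpi + VPA *apoeb* was listed only through transcripts at 11.2 and 1.06 FPKM, each listed at 0 in uninjured retina. The listed lens markers summed to 558 FPKM at 4 dpi + VPA and 88.9 FPKM at 4 dpi, against 1.97 FPKM, and *cryaa*, *crygm3*, *crygs4* and *lim2.1* were at 0 in uninjured retina. Of 17 amacrine and horizontal cell markers, 0 were listed in any comparison. Of 21 ganglion cell markers, the growth cone gene *gap43* alone was listed at 4 dpi + VPA and at 4 dpi, and was higher. At 12 hpi *gap43* was also higher, while *rbpms2b*, an RNA-binding protein gene, was listed lower at 9.19 FPKM against 36.2 FPKM in uninjured retina. Of 14 rod markers, *rcvrna* was listed lower at 12 hpi, at 63.6 FPKM, and at 4 dpi + VPA, at 85.7 FPKM, against 237 FPKM in uninjured retina, and *nr2e3* was higher in all 3 injured groups. Of 17 cone markers *guca1e* was listed, lower, in each comparison. Of 12 bipolar cell markers *trpm1b* was listed lower in each comparison. Of 10 red blood cell markers 2 were listed, both higher at 12 hpi. The part of cell composition in the lower levels of the 5 genes was not tested.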

How the data were processed

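Whole-retina RNA was compared between 3 injured groups and uninjured retina, grouped by the sample titles. Bowtie2 2.2.2, TopHat2 2.1.0, Cufflinks 2.2.1 and the build GRCz10 are tools and a build that the submitters' processing notes name. The authors deposited 1 FPKM value per group, per the file headers, with the log2 fold change, a test statistic (a score), a p-value and a q-value, at gene level for 4 dpi and at transcript level for 12 hpi and 4 dpi + VPA. The 6 tables hold only entries with p of at most 0.05, split by direction, as read from the values. Every entry was also above 1 FPKM in its higher group, so a gene can be absent for a low level as well as for its p. Depth per library is unknown from these tables. With 1 value per group no test was run.

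The deposited log2 fold changes, p and q were copied. SE is the log2 fold change over the test statistic. Log2 changes with a pseudocount of 0.1, list counts, medians and likeness were computed with pandas 2.3.3 and numpy 2.4.6 in Python 3.11.15, and the functions were tested on simulated data. Genes with several entries were taken by the entry of highest mean FPKM. Of the related lists, all family members listed were named. Of the other related lists, up to 6 genes per comparison at 5 FPKM or more in the higher group were named. These were not always the genes with the largest changes. The 3 genes nearest each of the 5 were also named. The 5 genes, the 8 related lists and the 9 marker lists were chosen with earlier results of these data known. One bipolar cell marker result is not reported here.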

Additional observations from a re-analysis of the deposited data

How the results depend on the processing

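The 11 log2 changes of the 5 genes kept their direction at pseudocounts of 0, 0.01 and 1 and with listed entries summed, between -3.63 and -1.44. Each moved by less than its derived SE from its value at a pseudocount of 0.1. For *npas4a* at 4 dpi, with an SE of 0.96, it was -3.12, -2.93 and -1.97 at pseudocounts of 0, 0.1 and 1. From 0 to 1 that value moved by more than its SE. Of 103 recomputed values 4 moved beyond their limit (1 derived SE, 1.5 times for a count, or the Wilson binomial interval for a share) and 0 changed sign. With p of at most 0.01 instead of 0.05, 3 of the 5 genes were left at 4 dpi + VPA, without *egr1* and *npas4a*, since the limit is stricter. Of the 441 genes with an entry listed lower there, 70 passed it, or 6.76% of all its listed genes. The median of the calcium entry and extrusion list at 12 hpi was -1.56 at a pseudocount of 1, and that of the SOX list at 4 dpi, 2.63 at 0.1, was 1.33 at a pseudocount of 1 and 1.65 without entries under 0.01 FPKM, which leaves out *sox21b*. No paired analysis was possible because each group has 1 pooled value, and no replicate could be left out for the same reason. Low FPKM, as for *npas4a*, and the unknown depth limit the precision.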
